A study of Drosophila melanogaster with 10 samples.

Results

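The comparison described here asks what expression of Yki adds to wing discs that already carry an RNAi construct against Nelf-A. It sets the 3 libraries of ap > Yki+NelfAi, the tumorous genotype, beside the 2 libraries of ap > NelfAi, 5 of the 10 libraries of the series. The rule was to report the genes for which every tumorous library lay on one side of both NelfA RNAi libraries, over all genes of the deposited table. Of the 7987 genes listed, 3366 met it, 1715 with higher and 1651 with lower values in the tumorous discs. Of these, 3326 passed the filter on low values and were tested, and 40 were not.

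All larvae were of the third larval instar, and all genotypes carried the apterous driver, UAS GFP and the temperature-sensitive repressor Gal80ts. This driver expresses Gal4 in the dorsal compartment of the wing imaginal disc, so ventral and other cells of the dissected tissue carry no active transgene. ap > NelfAi adds UAS NelfA RNAi and its tissue is labelled wild type. ap > Yki+NelfAi adds UAS NelfA RNAi and UAS Yki, and its tissue is labelled as a neoplastic overgrowth. Another pair of genotypes serves below as the match without the RNAi construct, ap > GFP with 2 libraries and ap > Yki, labelled as mildly overgrown, with 3. Discs were pooled, 150 for ap > NelfAi and for ap > GFP, 70 for ap > Yki and 25 for ap > Yki+NelfAi, and taken on day 4 to 5 after the transgenes were switched on. Replicate numbers are those of the labels, and separate cultures are not described beyond the word biological, so the p-values measure the spread between these pools.

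Yki is the transcriptional coactivator that the Hippo pathway restrains. With the DNA-binding partner Scalloped it raises the expression of growth and survival genes, and it is known in the wing disc for driving overgrowth when it is released from that restraint. NELF, of which Nelf-A is a subunit, holds RNA polymerase II shortly after the start of transcription, and the kinase P-TEFb releases it. Pausing of this kind is common at genes that respond to signals and development.

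The unit of the table is the number of reads on a gene divided by a factor of the library, called the value here, and 1 read was worth 0.0464 to 0.0839. The 5 libraries held 6990931 to 13065642 reads on genes. The 2 ap > NelfAi libraries differed from each other more than any other pair of replicates. Their rank correlation across genes was 0.859, against 0.9504 to 0.990 for the other pairs, and 27.2% of tested genes differed between them by more than 2-fold, against 1.79% to 9.85%. The difference followed transcript length, with a rank correlation across genes of -0.74, replicate 1 being lower for long transcripts. Replicate 1 also had 8.88% of its reads outside annotated genes, against at most 4.89% in the other 9 libraries. Nelf-A had values of 11.4 and 32.9 in ap > NelfAi, 17.1, 15.8 and 16.9 in ap > Yki+NelfAi and 40.4 and 36.05 in ap > GFP. The library labelled ap > NelfAi replicate 2 thus fell among the 5 libraries that lack the construct (28.1 to 40.4), and Nelf-A was not called in the comparison (log2 fold change -0.23, adjusted p = 0.718). Most counts over gene lists are therefore also given without each of these libraries.

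Across all genes, 657 of the 7858 tested were called higher in ap > Yki+NelfAi, which is 8.36%, and 716 were called lower, which is 9.11%. Counts over the gene lists below are to be read beside these shares, together 17.5%. A list near them is not set apart from the other genes. A call is a limma adjusted p under 0.05 with a change of at least 1.5-fold, or 0.585 on the log2 scale. Fold changes are on the scale of log2(value + 0.5), which understates the change of low genes. All called genes had libraries that did not overlap, a condition that 42.3% of tested genes met. The median change over all tested genes was 0.04. For 425 of the 657 higher genes and 579 of the 716 lower genes, the 3 tumorous libraries also lay beyond all 7 other libraries of the series. Among all tested genes without overlap this held for 898 of 1708 higher and 945 of 1618 lower genes. The called genes were chosen by these same tumorous values, so their larger share is not a separate result. Without replicate 1 of ap > NelfAi the calls were 772 (9.82%) and 758 (9.65%), of which 485 and 512 were shared with the full set. Without replicate 2 they were 1470 (18.7%) and 1170 (14.9%), together 33.6% of tested genes, with 552 and 634 shared. Scaling each library by its reads on genes shifted the median of all genes to -0.17 and gave 412 higher and 1119 lower calls, a share of higher calls of 26.9% in place of 47.9%. Without replicate 1 of ap > Yki+NelfAi 430 higher and 504 lower genes were called, and without its replicate 2 387 and 493.

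The transgene rose with its label. yki, whose product is the coactivator itself, read 187 and 75.02 in ap > NelfAi and 8143, 11377 and 9925 in ap > Yki+NelfAi, without overlap, a log2 fold change of 6.35 ± 0.35 (SE, adjusted p = 2.05e-05). Reads of the transgene and of the endogenous gene cannot be told apart here.

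The 12 largest rises ran from 4.53 to 6.53 on the log2 scale, and besides yki they included genes of metabolism, translation and cell fate. ImpL3, lactate dehydrogenase, which turns pyruvate into lactate, rose from 28.7 and 10.6 to 458, 1355 and 830.0. The gene lies on chromosome 3L at 6259105 to 6262694 in dm6. Its log2 fold change was 5.48 ± 0.48 (adjusted p = 1.23e-04), and its lowest tumorous library lay far above both NelfA RNAi libraries. Thor, the 4E-BP homolog that holds back cap-dependent translation, rose from 17.8 and 9.49 to 307, 413 and 347 (4.71 ± 0.33, adjusted p = 5.73e-05). chinmo, a BTB zinc finger factor that keeps cells in an immature state and acts downstream of JAK/STAT signalling, had values of 1.85 and 25.05 in ap > NelfAi and 484, 238 and 239.9 in the tumorous discs. Its lowest tumorous library was far above both, but its size depended on the NelfA RNAi library, 3.57 against replicate 2 alone and 7.01 against replicate 1 alone. Nha2, a sodium/proton exchanger, rose from 1.17 and 0.429 to 62.9, 31.2 and 23.3.

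Genes of the larval cuticle supplied a further group of rises. Lcp65Ag2 stood at 0.923 and 0 in ap > NelfAi and at 30.97, 145 and 103 in ap > Yki+NelfAi, a log2 fold change of 6.53 ± 0.65. Its near-identical copies Lcp65Ag1 and Lcp65Ag3 moved with it, and reads could have been split among the 3 genes. Cpr64Ac, another cuticle protein gene, was near 0 in ap > NelfAi, 3 reads in all, and 2.798, 66.6 and 11.8 in the tumorous libraries, of which replicate 2 was far above the others. Over summed reads that is a ratio of 214 with a 95% exact interval of 73.1 to 1039.6 that covers counting error only. CG11697, of unstated function, had 1 read in the 2 NelfA RNAi libraries together and 14.3, 14.05 and 13.8 in the tumorous ones, a ratio of 396 with an interval of 70.9 to 15678. The remaining genes of the 12 largest rises were CG34109, CG9521, CG11073 and Lcp65Ag1, with log2 fold changes of 4.86, 4.69, 4.63 and 4.71. Of these only Lcp65Ag1 is on the cuticle list.

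The 12 largest falls ran from -5.10 to -9.0. ImpE2, a gene induced by ecdysone in imaginal discs, dropped from 718 and 1352 to 0.379, 1.37 and 3.84, a log2 fold change of -9.0 ± 0.64 (adjusted p = 5.73e-05). ImpE3, induced by the same hormone, went from 76.5 and 93.5 to 0.1897, 0.4797 and 1.496, at -6.27 ± 0.57. In ap > GFP ImpE2 read 1246 and 1360.4 and ImpE3 115 and 120.3. The serine protease inhibitor genes Spn43Aa and Spn100A fell from 75.2 and 105 to 0, 1.64 and 0.499 and from 36.2 and 60.5 to 0, 0.206 and 0.1496. wbl, the gene of the endoplasmic reticulum protein Windbeutel, fell from 65.9 and 44.7 to 0.1897, 0.137 and 0.698 (-6.08 ± 0.43, adjusted p = 5.73e-05). t, the tan gene of pigment metabolism, fell from 17.03 and 22.6 to 0.237, 0 and 0.0499, with the smallest standard error of the 12 (-5.10 ± 0.26). With tumorous values near 0, this size and error depend on the added 0.5. Over the alternative settings the size ran from -7.59 to -4.24.

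The other falls involved genes of larval cuticle and of the salivary gland, for which the NelfA RNAi libraries disagreed. Lcp1, Lcp2, Lcp3 and Lcp4 had values of 472 and 58.3, 86.2 and 11.4, 197 and 15.5 and 319.7 and 27.6 in replicates 1 and 2 of ap > NelfAi, and none exceeded 1.58 in the tumorous libraries. CG42500 ranged from 67.0 to 1008 between the same libraries and was 0.474, 3.08 and 0.599 in the tumorous ones. Sgs7, a glue protein gene of the salivary gland, was 56.4 and 22.4 and then 0.0474, 0.137 and 1.197. In whole tissue, fewer cells of a type and less RNA per cell cannot be told apart. Summed over 6 salivary gland markers, the NelfA RNAi libraries held 165 and 49.1 and the tumorous ones 0.379 to 3.84, with Sgs4, Sgs5, Sgs8 and ng3 each at 0 in 1 or 2 tumorous libraries. Summed over 15 muscle markers they held 1372 and 354 against 105 to 195 with none at 0, and over 7 larval fat body markers 293 and 50.2 against 18.5 to 50.9. Called lower were 5 of the 6 salivary gland, 10 of the 15 muscle and 1 of the 7 fat body markers. The median log2 fold change of the fat body markers leaned on replicate 1 of ap > NelfAi. It was -2.13 with all libraries, -0.85 without replicate 1 and -3.56 without replicate 2. The part of attached tissue in these falls was not tested.

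**Figure D1:**
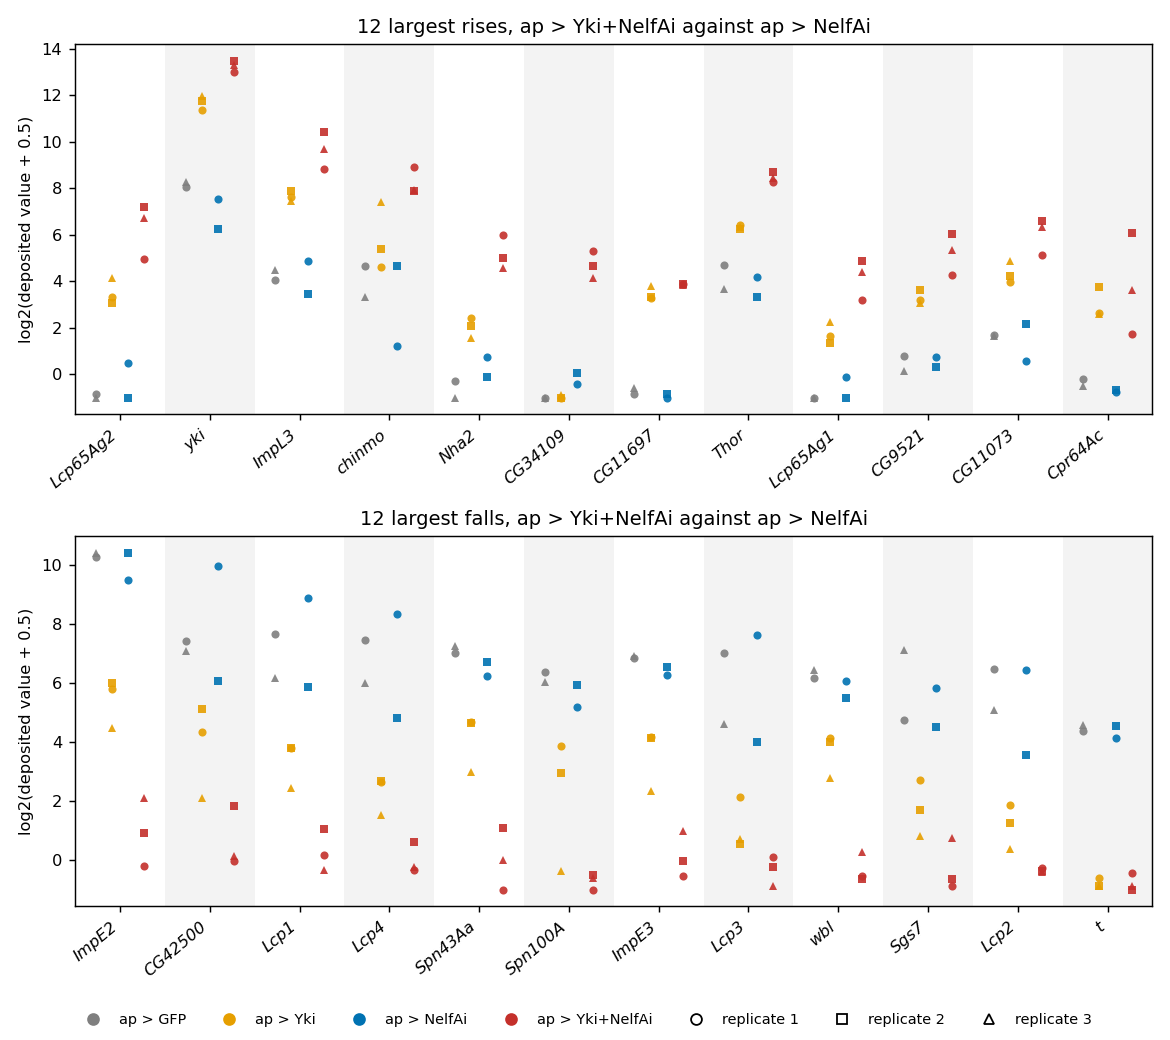
Values of the 12 largest rises (top) and falls (bottom) in every library, as log2(value + 0.5) on the vertical axis, with 1 point per library, colour for genotype and shape for replicate number. Each rise has its 3 tumorous points above both ap > NelfAi points and each fall has them below, and for Lcp1 to Lcp4 and CG42500 the circle of ap > NelfAi replicate 1 sits above the square of replicate 2.

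The same contrast of Yki could be taken without the RNAi construct, between ap > Yki and ap > GFP, which shares no library with the tumorous comparison. It gave 189 genes called higher, 2.41% of those tested, and 129 called lower, 1.64%, together 4.05%. These numbers depended on single libraries. They were 37 and 23 without replicate 1 of ap > GFP and 24 and 15 without its replicate 3, and 380 and 268 or 383 and 272 without replicate 1 or 2 of ap > NelfAi, which enter this contrast only through the shared estimate of the spread. Without replicate 1, 2 or 3 of ap > Yki they were 69 and 59, 92 and 60, and 112 and 82. Of the 657 genes called higher with the RNAi construct, 585 had a positive change without it, and 129 were called higher there too. Of the 716 called lower, 559 had a negative change without it and 110 were called lower there. No sizes are compared over these genes, since they were chosen by the change with the construct. Chosen by ap > Yki instead, 170 of the 189 genes called higher there had a positive change in the tumorous comparison and 6 were called lower in it, with a median log2 fold change of 1.43 without the construct and 1.24 with it. All 129 genes called lower in ap > Yki had a negative change in the tumorous comparison, with medians of -1.97 without the construct and -2.94 with it. The change was larger in size with the construct for 89 of the 189 and for 89 of the 129. Because these genes were chosen by the change without the construct, that side is favoured. The medians and counts are therefore not an even comparison of sizes. Over all 7858 genes 63.4% had the same sign in both, and the Pearson correlation across genes, which are not independent, was 0.57. Without replicate 1 of ap > NelfAi, 121 of the 129 shared rises and 96 of the 110 shared falls were still called, and without replicate 2 the numbers were 122 and 110.

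For several genes called in both settings the 2 changes were close in size. CG11697 had values of 0.0639 and 0.162 in ap > GFP and 9.16, 9.499 and 13.4 in ap > Yki, and its log2 fold change without the construct, 4.18, lay near that with it, 4.78. CG43394 rose from 11.2 and 8.58 to 90.5, 106 and 147 without the construct and from 10.9 and 5.39 to 140.4, 122 and 147 with it. t fell from 20.5 and 23.3 to 0.162, 0.0475 and 0.0464 without the construct, a log2 fold change of -5.26 beside -5.10 with it, and the difference of the 2 was 0.16 ± 0.37. For Non1, a nucleolar GTPase gene of ribosome biogenesis, the 2 changes were 2.05 and 2.08, a difference of 0.04 ± 0.28. For others the fitted change was larger with the construct. ImpL3 rose to 194, 235 and 173 in ap > Yki from 16.05 and 21.9 in ap > GFP. Its difference of 2.10 ± 0.68 between the 2 settings had an adjusted p of 0.191. For ImpE2 the change was -4.93 without the construct and -9.0 with it, a difference of -4.07 ± 0.91 that missed the threshold at an adjusted p of 0.0725. CG12502 rose in both, from 1 read in the NelfA RNAi libraries to 11.8, 9.53 and 7.23 (ratio 270.2, interval 48.3 to 10692), and from 0.192 and 0.162 to 4.58, 3.89 and 7.15 in the pair without the construct. Sgs3, a further glue protein gene, fell by 4.67 on the log2 scale without the construct and by 4.87 with it.

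The test of the difference between the 2 changes called 99 genes, 1.26% of those tested, 25 (0.318%) more positive and 74 (0.942%) more negative with the RNAi construct. Of the 25, all were called higher in the tumorous comparison and 6 also in ap > Yki. Of the 74, 54 were called lower in the tumorous comparison and not called in ap > Yki, 7 were lower in both, 6 were lower in the former and higher in the latter, 6 were higher in ap > Yki only, and 1 was higher in both. These calls were unsteady: they numbered 4 to 8 without either library of ap > GFP or without replicate 1 or 2 of ap > Yki, 23 without replicate 2 of ap > Yki+NelfAi, and 1025 without replicate 2 of ap > NelfAi.

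Among the 25 were genes with roles in growth control. Thor rose to 85.2, 74.8 and 79.1 in ap > Yki from 25.3 and 12.03 in ap > GFP, and its change with the RNAi construct exceeded that without it by 2.55 ± 0.47 (adjusted p = 0.0412). ImpL2, which encodes a secreted protein that binds and blocks insulin-like peptides, was 92.3 and 88.6 in ap > GFP and 85.1, 97.5 and 92.8 in ap > Yki, a change of 0.02 ± 0.40. It read 28.6 and 79.1 in ap > NelfAi and 285, 577 and 356 in ap > Yki+NelfAi, and the difference of the changes was 2.99 ± 0.57 (adjusted p = 0.0429). upd3, a JAK/STAT ligand, exceeded its change in ap > Yki by 2.17 ± 0.40 (adjusted p = 0.0399). yki itself exceeded it by 2.82 ± 0.50, having risen from 265 and 307 to 2637, 3396 and 4007 without the construct. Its tumorous values were 8143, 11377 and 9925, so yki RNA also differed between the 2 genotypes with Yki. In these differences the level of yki RNA and the RNAi construct cannot be told apart.

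The largest positive differences were in other genes. CG34109 had no reads in ap > GFP and at most 1 in a library of ap > Yki, 0.252 and 0.551 in ap > NelfAi, and 38.5, 24.4 and 17.2 in the tumorous libraries, a difference of 4.82 ± 0.48 that depends on the added 0.5. CG13067, the neuropeptide-like gene Nplp4 and the cuticle gene Lcp65Ac were highest in the tumorous libraries, at 25.2, 20.6 and 13.02, 29.6, 39.3 and 22.8 and 1.52, 4.797 and 2.59. CG42697 was of another kind. Its values were 7.097 and 10.3 in ap > GFP and 8.52, 12.2 and 9.800 with Yki alone. The tumorous libraries read 7.21, 10.6 and 8.68, and it had 3 reads in all in ap > NelfAi, so its ratio of 81.3 (interval 27.6 to 396) rests on the NelfA RNAi libraries.

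Of the genes with the largest negative differences, amd and Cpr66D were called higher in ap > Yki and lower in the tumorous comparison. amd, an enzyme gene of cuticle catecholamine metabolism, rose from 3.96 and 3.35 to 30.5, 19.6 and 17.3 in ap > Yki, and fell from 5.704 and 4.47 to 0.569, 1.85 and 1.85 in the tumorous comparison, a difference of -4.05 ± 0.53, and its fall was not called without replicate 1 of ap > NelfAi (adjusted p = 0.0576). The cuticle gene Cpr66D rose from 11 and 12.5 to 27.1, 29.8 and 28.2 without the construct and fell from 11.1 and 9.62 to 0.996, 2.12 and 2.05 with it. Cpr49Ah, CG13516 and the noncoding RNA gene CR43432 were the others of the 5 largest, with differences of -5.70, -3.68 and -3.46. The glutathione transferase genes GstO3 and GstS1 were near 107 and 286 on average in ap > GFP and 88.4 and 310.5 in ap > Yki, and fell from 95.4 and 60.1 to 3.94, 9.39 and 8.78 and from 259 and 277 to 60.4, 90.7 and 104 in the tumorous comparison. Cyp6a17, a cytochrome P450 gene, fell from 1.68 and 2.14, already below the 8.44 and 9.88 of ap > GFP, to 2 reads in the 3 tumorous libraries together, a ratio of ap > NelfAi to tumorous reads of 54.2 (interval 14.3 to 459). wbl and BM-40-SPARC, a matricellular protein of basement membranes, had differences of -3.42 and -2.27. GstO3, GstS1, Cyp6a17 and BM-40-SPARC were named as members of the gene lists and not by the size of the difference. Genes outside the lists, such as yellow-e2 (-3.37) and CG17919 (-3.36), had larger differences than these.

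**Figure D2:**
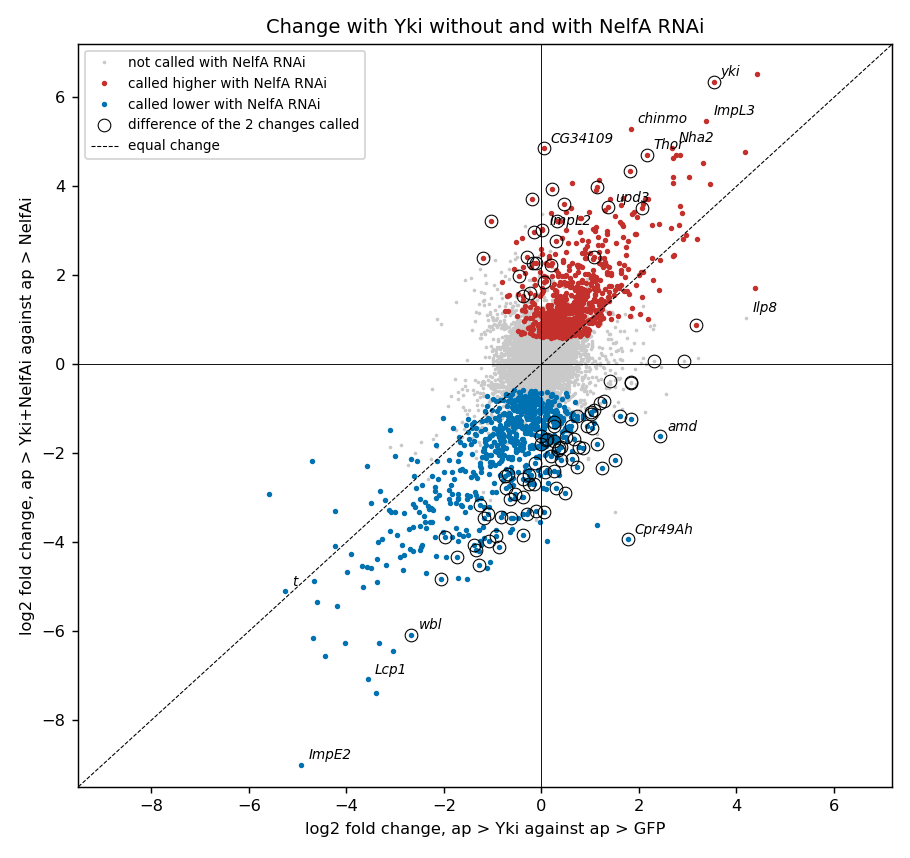
Change with Yki for each of 7858 tested genes, without the RNAi construct on the horizontal axis and with it on the vertical axis, both as log2 fold changes, with called genes coloured and the 99 genes whose changes differed ringed. The coloured genes are mostly those called on the vertical axis, t sits on the line of equal change, and amd and Cpr49Ah lie in the quadrant higher without and lower with the construct.

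Genes reported as targets of Yki in the disc were mixed. Of 21 tested, 9 were called higher and 1 lower, with a median log2 fold change of 1.04 beside 0.04 over all genes. That median was 0.72 without replicate 1 of ap > NelfAi and 1.31 without replicate 2. The median transcript length of the list was 3719 bases, beside 1976 for all tested genes. Leaving out replicate 1 of ap > NelfAi left 6 higher and 2 lower, and leaving out replicate 2 gave 15 and 1. kibra and ex, upstream regulators of the Hippo pathway that Yki raises as negative feedback, were called higher. kibra read 5.79 and 36.9 in ap > NelfAi and 222, 143 and 154 in the tumorous libraries, and ex read 26.6 and 243 and 912, 678 and 802. ex was not called without replicate 1 (adjusted p = 0.0821). In ap > Yki, replicate 3 alone reached the tumorous range, with ex at 206, 256 and 795 and kibra at 55.6, 54.1 and 165 in the 3 libraries. wg, the Wingless ligand, rose from 36.9 and 39.6 to 105, 78.1 and 75.7, a log2 fold change of 1.15 ± 0.21 that remained called with any 1 of the 10 libraries left out. Iap2, an inhibitor of apoptosis, rose from 48.8 and 44.7 to 74.04, 80.3 and 67.9. Other targets did not pass the test. th, which encodes the caspase inhibitor Diap1, was 107 and 85.4 and 65.03, 82.2 and 96.2, overlapping, with a log2 fold change of -0.26 ± 0.24. CycE, a G1/S cyclin gene, was 7.38 and 20.3 and 12.3, 8.84 and 9.73, and fj, a kinase gene of planar polarity, was 60.3 and 62.7 and 102, 69.2 and 60.1. dm, the Drosophila Myc gene, was higher in every tumorous library, 2.68 and 31.97 against 73.6, 49.1 and 44.9, at an adjusted p of 0.0619. vg, the wing selector gene, fell from 39.2 and 64.2 to 21.7, 22.3 and 20.6 (adjusted p = 0.00483).

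Of 23 components of the Hippo pathway 1 was called, Zyx, a LIM domain protein that restrains the kinase Warts, which rose from 28.5 and 37.4 to 61.1, 67.99 and 52.6. The kinase gene wts itself was 4.28 and 30.7 in ap > NelfAi and 41.2, 25.2 and 29.1 in the tumorous discs, and sd, encoding Scalloped, was 40.2 and 125 and 177, 127 and 122. Both genes overlapped between the genotypes. Without replicate 1 of ap > NelfAi the call of Zyx was lost and 3 of the 23 were called lower, whereas without replicate 2 11 were called higher. Of 12 genes of NELF, the 7SK complex and P-TEFb, limma called 0 and edgeR 0, DESeq2 called 0, and 2 had an unadjusted p under 0.05 in limma. One ap > NelfAi library at a time gave 1 lower call without replicate 1 and 2 higher and 2 lower calls without replicate 2.

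In the JAK/STAT pathway the ligands rose together while the receptor and kinase did not pass the test. Of 13 genes, 6 were called higher and the other 7 did not pass the test, with a median of 0.72, and 4 and 8 were called higher without replicate 1 or 2 of ap > NelfAi. The median was 0.08 without replicate 1 of ap > NelfAi and 1.39 without replicate 2, beside 0.02 and 0.01 over all genes. The median transcript length of the list was 2949 bases, beside 1976 for all tested genes. upd3 rose from 0.923 and 1.47 to 17.1, 25.2 and 15.5 (log2 fold change 3.53 ± 0.28, adjusted p = 7.73e-05). os, the symbol used in the table for the ligand Unpaired 1, rose from 5.96 and 7.59 to 55.9, 20.8 and 20.8, and upd2 from 0.755 and 1.899 to 3.75, 6.85 and 3.39. The values of upd2 were low, and its call was lost without replicate 1 of ap > NelfAi. The receptor gene dome was 39.1 and 81.4 against 67.8, 42.1 and 49.8, the kinase gene hop 17.4 and 56.6 against 40.8, 27.9 and 35.8, and Stat92E 51.6 and 129 against 154, 126 and 129.6, all with overlap. Ptp61F, a phosphatase, and Socs36E, both negative regulators that the pathway induces, rose from 66.8 and 83.1 to 261, 159 and 163 and from 61.6 and 66.9 to 131, 96.02 and 88.6, the latter with an adjusted p of 0.0494. chinmo, on this list as well, was the sixth.

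Of 24 genes of the JNK pathway and its targets 5 were called higher and 2 lower, against 3 and 2 without replicate 1 of ap > NelfAi and 12 and 2 without replicate 2. Atf3, a stress-responsive bZIP factor, rose from 2.600 and 16.05 to 89.4, 67.6 and 54.8, though without replicate 1 of ap > NelfAi the adjusted p was 0.089. cher, the filamin gene, rose from 104 and 159.7 to 650.5, 453 and 510.3, and ap > GFP and ap > Yki had 151 and 127 and 392, 382 and 537. Traf4, an adaptor of the pathway, rose from 12.2 and 14.3 to 48.4, 40.6 and 35.7. The nuclear receptor gene ftz-f1 and mol, encoding a maturation factor of the oxidase Duox, were the others called higher, mol from 4.36 and 2.69 to 9.96, 11.7 and 12.02. Calls in either direction were 29.2% of this list, beside 17.5% of all genes tested, and its falls alone were near the 9.11% of all genes. The matrix metalloproteinase genes parted. Mmp2 fell from 4.03 and 18.5 to 2.13, 2.54 and 2.09, whereas Mmp1, a standard marker of JNK activity, was 12.9 and 109 against 138, 104 and 91.3, and only replicate 1 of ap > NelfAi lay apart. The feedback phosphatase gene puc was 38.9 and 67.1 against 75.4, 71.2 and 50.6 and was not called. Nor was Ilp8, a relaxin-like hormone with which overgrown or damaged discs delay metamorphosis, at 13.8 and 8.64 against 10.8, 20.4 and 54.8. In ap > Yki it had been 73.3, 100.02 and 72.3 against 6.202 and 2.48 in ap > GFP.

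In the EGFR pathway, with 16 genes tested, the ligand genes spi and vn rose, spi from 70.1 and 72.3 to 165, 115 and 123 and vn from 3.69 and 19.1 to 78.1, 43.6 and 36.1, and the feedback inhibitor gene sty rose from 4.61 and 34.8 to 123, 57.4 and 51.97. These 3 higher calls became 1 without replicate 1 of ap > NelfAi, which vn and sty needed, and 7 without replicate 2. rho, a protease that activates the ligand Spitz, fell from 4.53 and 5.63 to 1.09, 1.097 and 0.998 (adjusted p = 0.00319), the only lower call, of which there were 3 without replicate 1. Of 13 genes of the Dpp pathway limma called 0 and edgeR 0, DESeq2 called 2, and 3 had an unadjusted p under 0.05 in limma. Leaving out replicate 1 of ap > NelfAi gave 1 lower call and leaving out replicate 2 gave 6 higher calls. The ligand gene dpp was higher in every tumorous library, 15.9 and 34.97 against 58.2, 43.9 and 39.6, at an adjusted p of 0.0691.

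**Figure D3:**
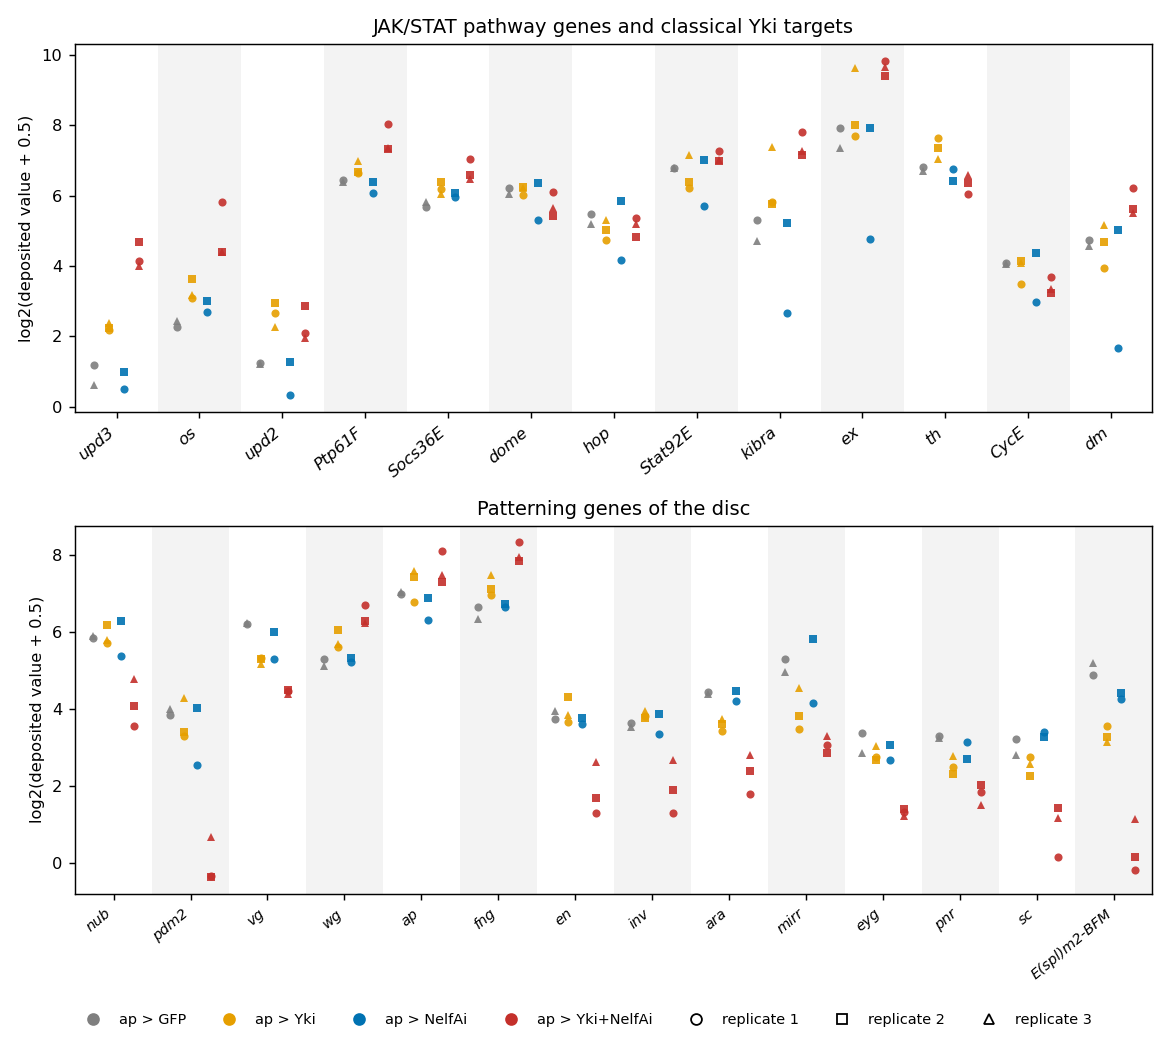
Values in every library, as log2(value + 0.5), of JAK/STAT pathway genes and Yki targets (top) and of disc patterning genes (bottom), with 1 point per library, colour for genotype and shape for replicate number. The ligand genes upd3 and os have all 3 tumorous points above the rest, kibra, ex and dm have a low circle for ap > NelfAi replicate 1, and nub to E(spl)m2-BFM include the falls of the patterning genes.

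Genes that pattern the notum, the part of the disc that forms the back of the thorax, were lower in the tumorous discs. Of 13 tested 9 were called lower and the other 4 did not pass the test, with a median of -1.43, and without replicate 1 or 2 of ap > NelfAi the lower calls were 10 and 8. ara, caup and mirr, the homeobox genes of the Iroquois complex, fell together. ara went from 17.9 and 21.6 to 2.94, 4.73 and 6.53, caup from 26.8 and 47.1 to 9.58, 13.8 and 16.01 and mirr from 17.4 and 56.5 to 7.92, 6.72 and 9.33. eyg, a Pax factor of the anterior notum, went from 5.87 and 7.84 to 1.99, 2.12 and 1.85, and its paralog toe from 7.89 and 11.1 to 3.18, 5.07 and 5.14. The GATA factor gene pnr of the medial notum fell from 8.305 and 6.002 to 3.08, 3.56 and 2.34, and the Bar homeobox gene B-H1 from 1.59 and 2.27 to 0, 0.137 and 0.1496. The proneural genes ac and sc, which select the precursors of bristles, fell from 4.87 and 2.63 to 0.711, 0.891 and 1.45 and from 10.1 and 9.13 to 0.617, 2.19 and 1.75. In ap > Yki the median of the 13 was -0.65.

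Genes of the wing pouch and hinge gave no single direction, with 1 of 14 higher and 3 lower, and leaned on the NelfA RNAi library, with 1 higher and 5 lower without replicate 1 and 6 higher and 3 lower without replicate 2. The POU factor genes nub and pdm2, which mark the wing field, fell from 40.9 and 78.5 to 11.2, 16.3 and 26.8 and from 5.28 and 15.7 to 0.285, 0.274 and 1.097, and with vg they were the 3. In ap > Yki nub was 52.6, 72.5 and 55.4 beside 57.03 and 59.6 in ap > GFP, and the differences between the settings were -1.74 ± 0.52 for nub and -3.04 ± 0.70 for pdm2, with adjusted p of 0.16 and 0.0763. en and inv, homeobox genes of the posterior compartment, fell from 11.7 and 13.2 to 1.94, 2.74 and 5.64 and from 9.65 and 14.1 to 1.94, 3.22 and 5.94, the only 2 calls of 9 Hedgehog pathway genes, with 3 lower without replicate 1 and 2 higher and 2 lower without replicate 2. In ap > Yki en was 12.2, 19.5 and 13.9. Of 11 dorsal compartment genes 2 were called higher, ap, the dorsal selector whose enhancer drives Gal4 here, from 79.4 and 117 to 278, 158 and 178, and fng, a glycosyltransferase of Notch, from 99.5 and 105 to 323, 229 and 247. fng was called without either NelfA RNAi library, whereas ap, at an adjusted p of 0.0498, was lost without replicate 1. Chi, encoding the cofactor of Apterous, fell from 55.7 and 50.04 to 29.3, 29.8 and 31.7. The list of 11 had 1 higher call without replicate 1 and 7 higher and 1 lower without replicate 2.

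Of 16 genes of the Notch pathway 1 was called higher, fng, and 6 lower, all of the Enhancer of split complex, direct targets of Notch signalling. For the whole list, leaving out replicate 1 of ap > NelfAi gave 1 higher and 7 lower calls and leaving out replicate 2 gave 6 and 5. E(spl)m2-BFM fell from 18.8 and 20.8 to 0.379, 0.617 and 1.696, a log2 fold change of -3.97 ± 0.35 (adjusted p = 1.23e-04). E(spl)mbeta-HLH, the most abundant of them, fell from 170.3 and 227 to 32.7, 55.7 and 35.4, E(spl)m7-HLH from 19.5 and 17.9 to 1.802, 4.93 and 4.59, E(spl)malpha-BFM from 16.4 and 25.1 to 1.28, 6.44 and 4.69 and E(spl)m3-HLH from 54.4 and 45.1 to 22.2, 21.5 and 17.1. Of 22 genes of the Wingless pathway 2 were called higher, wg and fz3, a receptor that the pathway induces, and 6 lower, with 1 and 6 without replicate 1 of ap > NelfAi and 10 and 6 without replicate 2. Wnt2 fell from 19.1 and 25.4 to 1.52, 3.36 and 3.29 and Wnt6 from 5.12 and 2.76 to 1.57, 1.71 and 0.948, and the proneural factor gene sens from 1.26 and 1.899 to 0.0474, 0.274 and 0.1995. The other 3 of the 6 were ac, sc and vg. Beside these genes, the 12 markers of wing disc epithelium summed to 390 and 935 in ap > NelfAi and 752 to 1073 in the tumorous libraries, with none at 0. The 12 markers of adepithelial myoblasts, muscle precursors under the notum, summed to 90.8 and 267 against 125 to 157. Of the 12, 2 were called lower (5 without replicate 1, and 2 beside 3 higher without replicate 2), twi and Him, twi from 15.02 and 14.6 to 5.45, 4.11 and 6.28. Whether the share of notum tissue differed was not tested.

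Genes of the ecdysone response, the steroid program that ends larval life, gave 9 lower and 4 higher calls of 22, with a median of -0.96, and 10 and 9 lower calls without replicate 1 or 2 of ap > NelfAi. Besides ImpE2 and ImpE3 they include ImpE1, from 14.7 and 193 to 1.57, 2.54 and 2.84, and nuclear receptor and zinc finger genes that the hormone induces. Eip78C fell from 9.65 and 23.2 to 0.0474, 0.343 and 0.0998, Hr4 from 5.03 and 91.1 to 0.806, 0.274 and 0.399, Blimp-1 from 2.52 and 35.03 to 0, 0.343 and 0.1496 and the ETS factor gene Eip74EF from 17.95 and 45.2 to 5.41, 7.68 and 10.6. For Hr4 and Blimp-1 the NelfA RNAi libraries lay far apart and the tumorous libraries lay below both. The receptor gene EcR was 13.1 and 61.98 against 85.9, 63.1 and 66.2 and was not called (adjusted p = 0.141). Called higher were ImpL3, ImpL2, ftz-f1 and Cyp18a1, a cytochrome P450 that inactivates ecdysone, which rose from 6.04 and 5.14 to 34.7, 30.3 and 31.7 (adjusted p = 6.39e-05). In ap > Yki the list had 2 higher and 4 lower calls.

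Cuticle protein genes moved in both directions, 19 lower and 9 higher of 43, with a median of -1.30 and extremes of -7.09 and 6.53. The rises besides those above include Cpr47Eb, from 0.587 and 0.245 to 6.403, 11.2 and 6.68, and TwdlN, with no reads in ap > NelfAi and 1.75, 7.61 and 3.24 in the tumorous libraries. Of 23 genes of chitin synthesis and modification 5 fell and 3 rose. neo and nyo, encoding zona pellucida proteins that shape apical matrix, fell from 24.3 and 49.6 to 1.28, 1.58 and 2.54 and from 13.2 and 32.5 to 0.142, 0.891 and 2.29. The chitin deacetylase genes serp and verm, which are also tracheal markers, rose from 169.8 and 191 to 472, 518 and 443 and from 278 and 372 to 755, 683 and 626, and obst-E, a chitin-binding protein, from 9.898 and 1.899 to 55.9, 42.3 and 35.1. The 8 tracheal markers summed to 641 and 977 in ap > NelfAi and 1368 to 1506 in the tumorous libraries, most of it serp and verm themselves, and 2 other markers of that list were called lower, dys from 2.01 and 3.797 to 0.142, 0.343 and 0.349 and btl from 1.51 and 2.27 to 0.569, 0.617 and 0.499. The part of tracheal tissue was not tested. Of 12 serpin genes 6 fell and the others did not pass the test. Spn27A, an inhibitor of the melanization and Toll cascades, fell from 276 and 222 to 88.6, 90.3 and 91.8. Of 12 basement membrane genes 4 fell and 1 rose, against 6 and 1 without replicate 1 of ap > NelfAi and 2 and 3 without replicate 2. Among the falls were the type IV collagen genes vkg, from 5.96 and 8.94 to 2.61, 2.74 and 3.39, and Cg25C, from 7.47 and 9.98 to 2.89, 3.701 and 4.19. Mp, a multiplexin collagen, fell from 2.77 and 11.9 to 0.379, 0.891 and 0.848, and BM-40-SPARC from 71.97 and 42.6 to 10.1, 16.2 and 19.95. Ndg, encoding nidogen, rose from 2.600 and 2.02 to 25.9, 10.01 and 14.4, against 12.5 and 9.44 in ap > GFP, so that the NelfA RNAi libraries were the low ones. Hemocytes also express these genes, and their 10 markers summed to 105 and 54.9 in ap > NelfAi and 61.4 to 70.4 in the tumorous libraries. The median log2 fold change of the 10 was -0.85, with 4 lower and 2 higher without overlap. Of the 10, limma called 0, edgeR 1 and DESeq2 4, and 6 had an unadjusted p under 0.05 in limma. The part of hemocytes in the falls of basement membrane genes was not tested.

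In metabolism, 4 of the 18 genes on the glycolysis list rose and the others did not pass the test, with a median of 0.48. The list goes beyond enzymes of glycolysis, with Hph, sima and tgo among its members. Besides ImpL3, Ald, the aldolase gene, rose from 233 and 231 to 865, 1337 and 1084 (2.22 ± 0.22, adjusted p = 2.39e-04). PyK, pyruvate kinase, rose from 119.9 and 116 to 195, 237 and 195, and Hph, the prolyl hydroxylase of the hypoxia response, from 13.2 and 22.7 to 46.2, 78.5 and 66.3. All 4 were called without replicate 1 and without replicate 2 of ap > NelfAi. In the insulin and TOR pathway 3 of 16 genes rose, Thor, ImpL2 and S6k, which encodes a growth-promoting kinase and went from 11.7 and 51.8 to 133, 75.6 and 78.6. The receptor gene InR was 0.923 and 37.8 against 66.5, 33.7 and 31.5, with overlap. The 3 rises became 2 without replicate 1, where S6k was lost, and 12 without replicate 2.

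Of 22 aminoacyl-tRNA synthetase genes 7 rose and the other 15 did not pass the test, with a median of 0.46, and 8 and 5 rose without replicate 1 or 2. Aats-leu went from 8.81 and 7.96 to 21.7, 17.1 and 18.8 and Aats-thr from 154 and 107 to 233, 284 and 259.8. Of 24 ribosome biogenesis genes 3 rose, 12.5% beside 8.36% of all genes tested, with 9 rises without replicate 1 and 3 rises and 1 fall without replicate 2. They were Non1 from 239.9 and 193 to 1081, 888 and 789.7, Ns2 from 62.1 and 49.9 to 98.3, 105 and 88.5 and RIOK1 from 5.201 and 2.76 to 8.02, 9.05 and 6.93. Cytoplasmic ribosomal protein genes, 6 higher and 1 lower of 87, depended on the NelfA RNAi library, with 36 higher without replicate 1 and 1 higher and 3 lower without replicate 2. Mitochondrial ribosomal protein genes had 2 calls of 72, both higher, 19 higher without replicate 1, and 1 higher and 18 lower without replicate 2. Of 33 proteasome genes 4 fell, 12.1% beside 9.11% of all genes tested. This count was 1 without replicate 1, 24 without replicate 2 and 22 with scaling by the reads on genes, and DESeq2 called 11. The median transcript lengths of these 3 lists were 709, 739.5 and 1389 bases, beside 1976 for all tested genes. Calls in either direction were 8.05%, 2.78% and 12.1% of them, beside 17.5% of all genes tested. After correction of every library for its trend with length, 44 and 10 of the ribosomal protein lists were called higher and 9 proteasome genes were called lower. The same correction gave 9 higher calls in the insulin and TOR list, 6 in the Hippo list and 6 in the polarity list.

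Genes of translocation into and folding in the endoplasmic reticulum fell, 11 of 26, with 1 rise, a median of -0.67 and 7 and 13 lower calls without replicate 1 or 2 and 17 with scaling by the reads on genes. Sec61gamma, a subunit of the translocation channel, fell from 170.4 and 87.4 to 36.2, 41.5 and 45.99. Pdi, protein disulfide isomerase, fell from 1048 and 1142 to 557, 578 and 587 and prtp, a related thioredoxin-domain protein, from 65.9 and 54.02 to 25.9, 22.8 and 25.8. The one rise was crc, the ATF4 homolog that drives the response to amino acid and folding stress, from 796 and 561 to 1267, 1380.1 and 1110.4. Of 17 chaperone and heat shock genes 1 was called, Hsp27, lower, at 826 and 799 against 133, 286 and 207.

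Of 12 apoptosis genes 3 rose and 2 fell. The bZIP factor gene Xrp1, of the stress response that marks loser cells, rose from 115 and 367 to 779.5, 642 and 633, but not without replicate 1 of ap > NelfAi (adjusted p = 0.0597). p53 rose from 19.3 and 11.5 to 31.4, 35.4 and 26.2. The death gene rpr fell from 12.5 and 10.5 to 4.51, 3.91 and 1.995, and the caspase gene Dcp-1 from 37.7 and 41.6 to 22.9, 19.5 and 24.4. Of 24 cell cycle genes 1 rose, stg, the Cdc25 phosphatase that triggers mitosis, from 50.8 and 65.3 to 158, 106 and 122, and 1 fell, cdc2c, encoding the kinase Cdk2, from 26.3 and 26.1 to 13.9, 14.9 and 18.7. Of 24 DNA replication genes 1 rose, RnrL, the large subunit of ribonucleotide reductase, from 115 and 105 to 186, 168 and 168. Calls were 8.33% of the cell cycle list and 4.17% of the replication list, beside 17.5% of all genes tested. With replicate 1 of ap > NelfAi left out the cell cycle list had 3 higher and 2 lower calls and the replication list 3 higher, and with replicate 2 left out they had 3 and 4 and 1 and 3. Scaled by the reads on genes, 13 of the named genes were no longer called, namely RnrL, p53, Iap2, Xrp1, vn, spi, sty, Socs36E, Zyx, fz3, ap, S6k and Ns2.

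Of 43 detoxification genes 4 rose and 9 fell, with 7 and 6 without replicate 1 of ap > NelfAi and 4 and 15 without replicate 2. Calls in either direction were 30.2% of this list, beside 17.5% of all genes tested, and its rises alone were near the 8.36% of all genes. GstD5, a glutathione transferase gene, rose from 0.503 and 0.674 to 5.98, 76.6 and 13.4, with replicate 2 far above the other tumorous libraries. Of 22 genes of cell polarity and adhesion limma called 0 and edgeR 0, DESeq2 called 0, and 8 had an unadjusted p under 0.05 in limma. Of the 22, 16 were called higher without replicate 2 of ap > NelfAi and 2 lower without replicate 1.

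**Figure D4:**
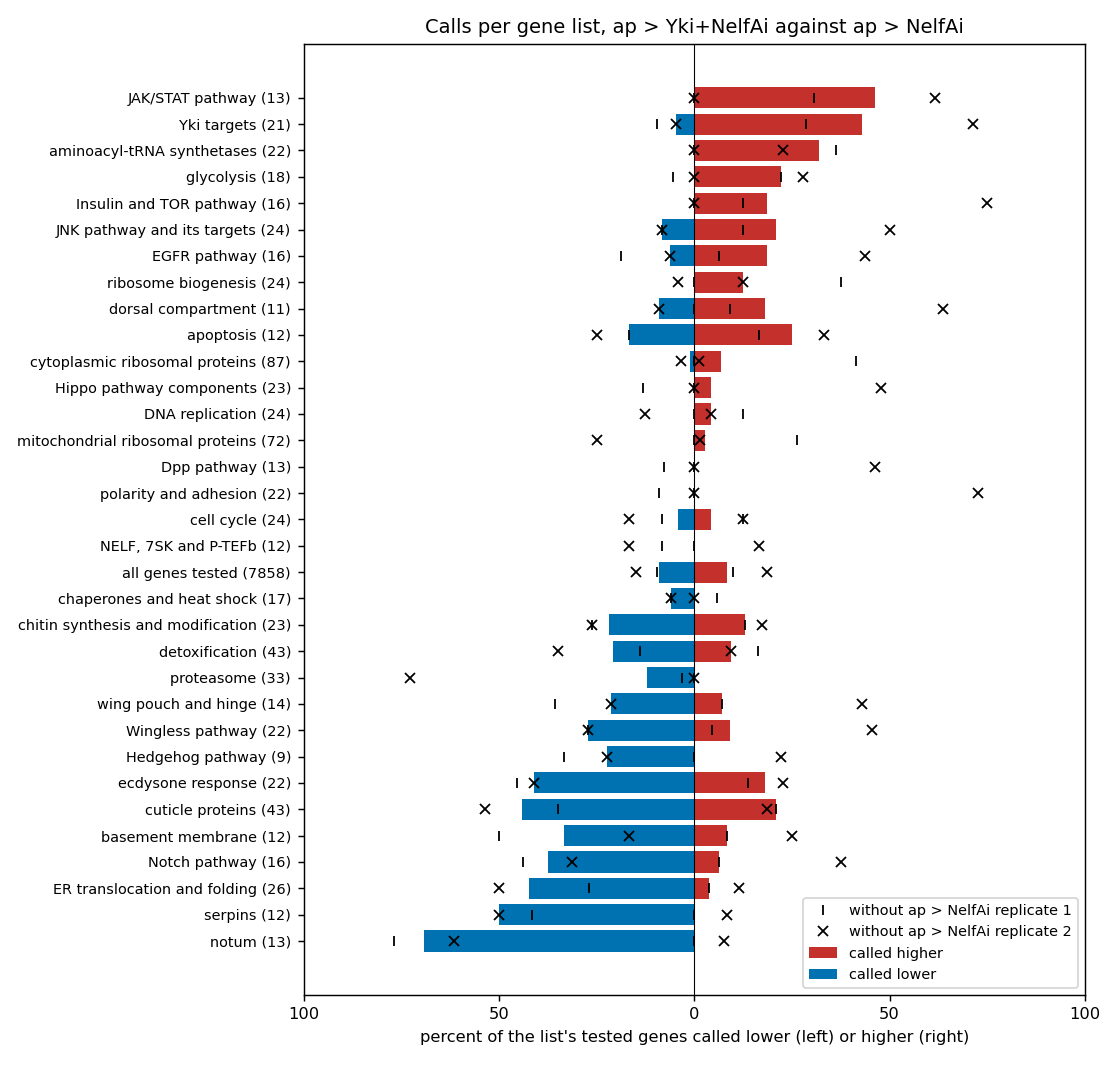
Share of each gene list called lower (bars to the left) or higher (bars to the right) in ap > Yki+NelfAi against ap > NelfAi, in percent of the list's tested genes, whose number stands in brackets, with black marks for the same shares without replicate 1 (upright) or 2 (cross) of ap > NelfAi. The notum, serpin and endoplasmic reticulum lists keep their marks on the left, whereas for polarity, insulin, Hippo and Dpp genes the cross lies far to the right of the bar and for the proteasome far to the left.

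**Figure D5:**
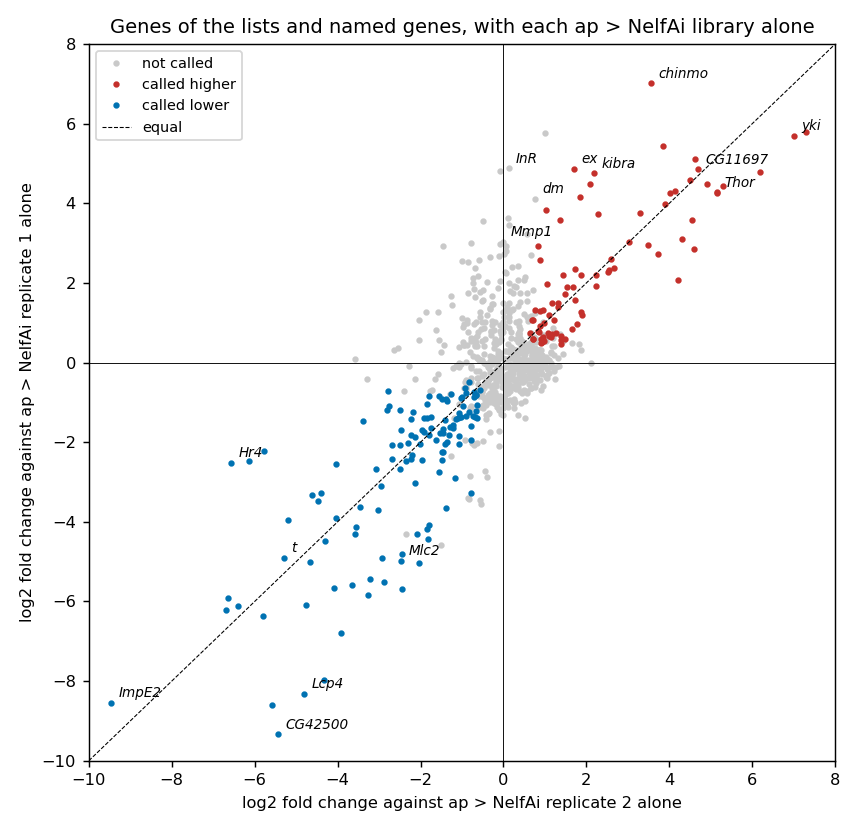
Log2 fold change of the listed and named genes against ap > NelfAi replicate 2 alone (horizontal) and replicate 1 alone (vertical), with 1 point per gene. Called genes lie in the upper right and lower left, while InR and Mmp1, not called, lie near 0 on the horizontal axis and above 3 on the vertical one.

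Calls of named genes that rested on 1 library of ap > NelfAi were these. Without replicate 1, 17 were lost, namely amd, ex, vn, upd2, Socs36E, Atf3, ftz-f1, Zyx, Wnt6, fz3, sty, ac, ap, S6k, Xrp1, cdc2c and Chi, and 2 were gained, both lower, Nelf-A and CycE. Without replicate 2, 7 were lost, namely btl, Eip74EF, vkg, Cg25C, p53, RIOK1 and toe, and 9 were gained, all higher, namely dm, hop, Stat92E, Mmp1, sd, wts, EcR, InR and dpp. Without replicate 1, 2 or 3 of ap > Yki+NelfAi 26, 28 and 15 were lost. No called gene changed direction under these omissions, while the change of Nelf-A, not called with all libraries, was -0.97 without replicate 1 of ap > NelfAi and 0.52 without replicate 2.

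Of the 148 genes in this account, 35 have exons that overlap those of another annotated gene or transposon, among them Nha2, ex, ImpL2, Spn43Aa, CG42697, fng and Zyx. Whether the counting used strand is not stated, so reads of such pairs cannot be told apart.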

How the data were processed

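RNA of pooled wing discs was sequenced in 10 libraries of 4 genotypes, grouped by GEO's labels. The authors aligned reads with HISAT, and the processing notes also name bcl2fastq, StringTie, edgeR and the build dm6, versions and counting settings not given in the sources used here. The deposited table holds a signal, the reads on each gene divided by a factor of its library, and 100% of values were whole multiples of the value of 1 read within 0.001, so reads were recovered. The 5 entries on no gene, 28.4% to 36.5% of reads, were left out. The authors' own comparisons (log2 fold change, mean log2 level, p-value and FDR) were not used.

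Genes that reached a value of 1 in 2 or more libraries were fitted in 1 limma 3.58.1 model (R 4.3.3) of log2(value + 0.5) on genotype over all 10 libraries, with a trend of the variance and Benjamini-Hochberg adjustment over 7858 genes. This gave both contrasts of Yki and their difference. Standard errors are those of the fit. Alternatives were edgeR 4.0.16 and DESeq2 1.42.0 on the recovered reads, other scalings, pseudocounts and filters, no minimum fold, the compared genotypes alone, a replicate block, removal of each library's trend with transcript length, and each library left out. The code was tested on simulated data. Annotation for lengths and overlaps was that of dm6, matched for 7864 of 7987 genes.

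Named were members of the gene lists, the 12 largest rises and falls among called protein-coding genes without overlap whose higher genotype averaged 5 or more, the 6 largest in each direction called in both settings, by the smaller change, and the 5 largest differences of each sign. Members and lists were chosen with earlier results of these data known. Nelf-A, Ilp8 and other list members that missed the threshold were named as defining members. The series' design text gives 2 replicates a genotype, the labels 2 or 3, and the labels were followed.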

Additional observations from a re-analysis of the deposited data

Results flagged for a closer look

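The change with Yki differed with the RNAi construct for 99 genes in the limma test of the difference itself, and 22 of them are named above. yki is among them, and the level of its RNA cannot be told apart from the construct. More positive with the construct were the changes of CG34109 (4.82 on the log2 scale), CG13067 (4.26), Nplp4 (3.89), CG42697 (3.71), Lcp65Ac (3.59), ImpL2 (2.99), Cpr47Eb (2.90), yki (2.82), Thor (2.55) and upd3 (2.17). More negative were those of Cpr49Ah (-5.70), amd (-4.05), CG13516 (-3.68), Cpr66D (-3.57), CR43432 (-3.46), wbl (-3.42), GstO3 (-3.07), neo (-2.91), btl (-2.76), Cyp6a17 (-2.55), BM-40-SPARC (-2.27) and GstS1 (-1.80). For CG34109, CG42697, Lcp65Ac and Cyp6a17 at least 1 genotype held 3 reads or fewer in all, so the size of the difference depends on the added 0.5.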

How the results depend on the processing

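Of the named genes, none that was called changed direction under any of the 20 alternatives, and 2711 of 2960 values kept their side of the threshold, 231 losing and 18 gaining a call. Of the 231 losses, 52 came in the fit of the 2 genotypes alone, which takes no spread from the other genotypes. Among them were caup, mirr, pnr, toe, ac, nub, vg, en, inv, os, upd2, stg, rpr and Dcp-1. With the replicate block 25 were lost. The counts over all genes moved as well. The genes higher and lower in ap > Yki+NelfAi, 657 and 716 as reported, numbered 412 and 1119 with scaling by the reads on genes, 272 and 270 in the fit of the 2 genotypes alone, and 1069 higher with the trend with transcript length removed. With 1 library left out they ran from 387 to 1470 and from 493 to 1170. In ap > Yki against ap > GFP the 189 higher and 129 lower genes became 366 and 246 with DESeq2, 122 and 197 with scaling by the reads on genes, and 430 and 293 with the length trend removed, with 211 lower in the fit of its 2 genotypes alone. Leaving out 1 library gave 24 to 383 and 15 to 272. The 99 differences between the changes became 433 with DESeq2, 325 with the length trend removed and 4 to 1025 with 1 library left out. The genes whose libraries do not overlap numbered 3394, 3584 and 4318 with RLE scaling, scaling by reads on genes and the length trend removed, beside 3366. The causes of these moves were not tested.

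Same-numbered libraries of ap > NelfAi and ap > Yki+NelfAi deviated from their group means with correlations of -0.40 and -0.37. With 2 libraries of ap > NelfAi the deviations mirror each other, so exchanging those libraries gave 0.40 and 0.37. The correlations therefore cannot decide whether the numbers pair the samples, and no pairing was assumed. With the number as a replicate block in limma, the tumorous comparison gave 405 rises and 478 falls, 61 and 56 in ap > Yki, and 0 for the difference, for which 874 genes had an unadjusted p under 0.05 and edgeR and DESeq2 without the block called 105 and 433.

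With 2 discordant libraries of ap > NelfAi, leaving out either leaves 1, which is then assumed to vary like the other genotypes.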
